A study of Bos taurus with 30 samples.

Results

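HOX genes encode homeodomain transcription factors that lie in 4 clusters, HOXA, HOXB, HOXC and HOXD, and carry a paralogue number that follows their order along the cluster. They were followed here in day 15 bovine conceptuses. A row of the count table was taken as a member when its Entrez identifier maps to a cattle symbol made of HOX, a cluster letter and a number, which gave 39 genes of the 35092 identifiers in the table. The rule used no measured value. Poly(A) RNA had been sequenced from 30 libraries of 17 Holstein embryos, each cut into a section with the embryonic disc (ED), from which the fetus forms, and a section of the extra-embryonic membranes (EEM), the trophectoderm and hypoblast tissue of the later placenta. In vitro produced (IVP) embryos came from slaughterhouse oocytes that were matured, fertilized and cultured in serum-free medium and moved to recipient cows on day 7. In vivo (IVV) embryos came from superovulated donors after artificial insemination with semen of the same bull. All were flushed on day 15 of gestation. The libraries comprised 7 ED and 6 EEM of IVP embryos and 9 ED and 8 EEM of IVV embryos, and 13 of the embryos yielded both tissues, 5 from IVP and 8 from IVV. The IVP embryos had grown in recipients and the IVV embryos in donors that received a different hormone treatment, so that procedure and cow cannot be told apart. All IVP embryos were flushed from a pair of recipients and all IVV embryos from a pair of donors, so that embryos of a group shared cows, and the labels give neither the cow nor the sex or length of an embryo. The paper reports that IVP embryos were shorter on average than IVV embryos and less often had an ED. Embryos without an ED were discarded, so that procedure, growth and this selection cannot be told apart.

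In the gastrulating mammalian embryo HOX genes are switched on in the posterior primitive streak, those of low paralogue number before those of high number, and the set a cell keeps marks its position from hindbrain to tail. WNT and FGF signals, retinoic acid and the CDX factors act upstream, and PBX and MEIS proteins bind DNA together with HOX proteins. Paralogues 1 to 4 are known for the hindbrain and neck, 5 to 9 for the trunk, and 10 to 13 for the lumbar, sacral and tail levels, the limbs and the urogenital tract. HOX transcripts are also known from trophoblast and from the allantois.

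Library totals ran from 48713218 to 63037371 counts. The summed counts of the HOX genes ran from 1726 to 4865 per library. All values below are raw counts or CPM, counts scaled to library size, after correction by the trimmed mean of M-values (TMM). The tissue labels were checked against marker lists. All 5 tested epiblast markers were higher in ED than in EEM (POU5F1 by 5.20 on the log2 scale, SE 0.29, edgeR adjusted p = 1.41e-10), whereas SOX2 and UTF1, also epiblast markers, were at 0 in every library. The summed level of 12 trophoblast markers was 8357 to 41250 CPM in ED and 19660 to 57750 CPM in EEM, so that these markers were counted in the ED sections too. In such bulk sections, fewer cells of a type and less RNA per cell cannot be told apart.

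Of the 39 HOX genes, 25 had 10 or more counts in 3 or more libraries. These were 5 of 11 in cluster A (HOXA9 and HOXA13 among them), 8 of 10 in cluster B (HOXB2 to HOXB9), 7 of 9 in cluster C (HOXC4, HOXC5, HOXC6, HOXC8, HOXC9, HOXC10 and HOXC13) and 5 of 9 in cluster D (HOXD1, HOXD3, HOXD4, HOXD8 and HOXD9). By paralogue number the detected genes were 9 of 12 among paralogues 1 to 4, 13 of 15 among paralogues 5 to 9 and 3 of 12 among paralogues 10 to 13. All 25 met this minimum among the ED libraries and 21 among the EEM libraries. The other four, HOXA13, HOXB5, HOXC10 and HOXD1, met it in ED alone, although HOXA13 and HOXD1 each had 2 EEM libraries with 10 or more counts. HOXA4, HOXA5, HOXB13 and HOXD12 had no count in any library. The remaining 10 were seen at low counts: HOXA2, HOXA6, HOXA10, HOXA11, HOXB1, HOXC11, HOXC12, HOXD10, HOXD11 and HOXD13, with a highest single count of 15, for HOXD11. The heat map of the counts shows the unbroken run of HOXB2 to HOXB9 and the gaps at HOXA4 to HOXA6 and at paralogues 10 to 12 other than HOXC10.

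**Figure D1:**
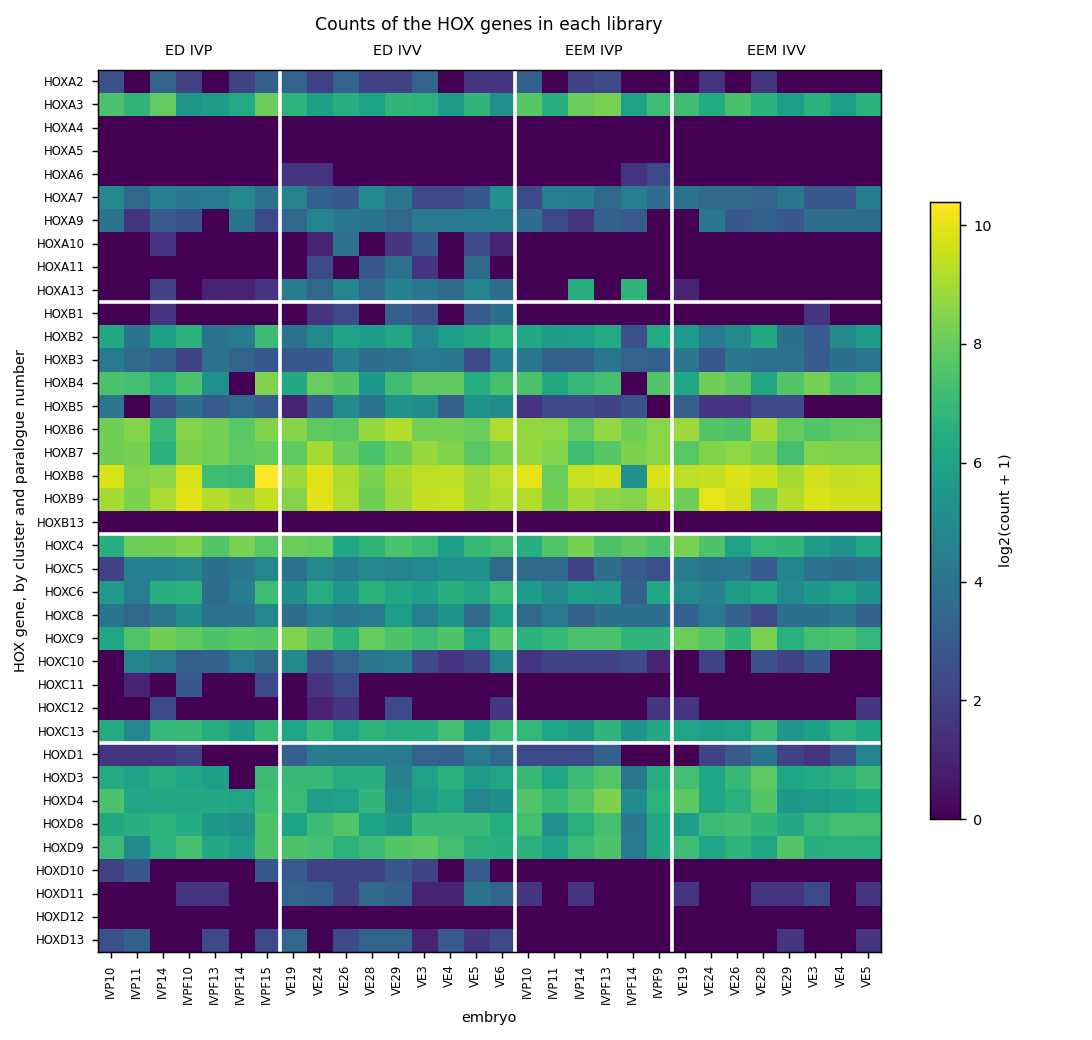
Counts of HOX genes (rows, by cluster and paralogue number) in 30 libraries (columns, by tissue and procedure), as log2(count + 1) on a linear colour scale. White lines separate clusters and groups. HOXB6 to HOXB9 are the brightest rows in every group, HOXA4, HOXA5, HOXB13 and HOXD12 are at 0 throughout, and HOXA13 is seen in all 9 ED libraries of IVV embryos and in 2 EEM libraries of IVP embryos.

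The counting did not use strand, and the spans of 15 of the 39 HOX genes overlap another annotated gene, with miRNA genes left out. Such spans are those of HOXA3 to HOXA7, HOXB3 to HOXB6, HOXB8, HOXB9, HOXD3, HOXD4, HOXD10 and HOXD11. Reads in shared exons may have been dropped or given to the neighbour. For HOXA4, HOXA5 and HOXA6, a lack of transcript cannot be told apart from this effect of the counting. HOXA13, HOXD1, HOXC10 and HOXC4, on which several comparisons below turn, overlap no other gene in the annotation used, with miRNA genes left out. That annotation is of another assembly than the one used for counting, so overlaps in the counting itself may differ.

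The summed level of all HOX genes did not separate the groups. In ED it was 57.0 ± 15.7 CPM (SD, n = 7) for IVP and 54.8 ± 10.4 CPM (SD, n = 9) for IVV, and in EEM it was 61.8 ± 19.8 CPM (SD, n = 6) for IVP and 65.4 ± 7.68 CPM (SD, n = 8) for IVV. The ranges of the 4 groups overlapped. Cluster B gave the greatest part of this sum in every group, with 34.7 ± 12.7 and 34.3 ± 8.36 CPM in ED of IVP and IVV embryos and 37.7 ± 12.95 and 43.2 ± 4.11 CPM in EEM. Cluster C summed to between 8.93 and 11.5 CPM on average, cluster D to between 6.66 and 9.14 CPM and cluster A to between 3.49 and 5.84 CPM. These sums are not corrected for transcript length and compare groups for a cluster rather than clusters or genes with each other.

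HOXB9, a trunk-level gene, had 325 to 942 counts in ED of IVP embryos (median 531), 280 to 983 in ED of IVV embryos (median 573), 284 to 634 in EEM of IVP embryos (median 447) and 274 to 1025 in EEM of IVV embryos (median 793.5). Its neighbour HOXB8 had medians of 380, 546, 778.5 and 719 counts in the same order. HOXB6 and HOXB7 had 99 counts or more in all libraries. These trunk-level genes were thus counted in EEM, which takes no part in the body axis, over ranges that overlapped those of ED. HOXC13, a tail- and hair-associated paralogue, was also counted in every library, with 27 to 156 counts in ED and 41 to 139 in EEM.

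Day 15 ED of IVP and IVV embryos were compared next. HOXA13, the most posterior gene of cluster A and known for the limb tip and the hindgut, was lower in IVP embryos. Its counts in the ED of the 7 IVP embryos were 0, 0, 3, 0, 1, 1 and 2. In the ED of the 9 IVV embryos they were 20, 10, 25, 10, 23, 16, 12, 25 and 12. The groups did not overlap, and every IVV embryo had at least 10 counts while no IVP embryo had more than 3. The fitted difference was -3.87 on the log2 scale (SE 0.60, edgeR's quasi-likelihood test, adjusted p = 0.000266), and the ratio of the summed counts was 15.5 in favour of IVV (95% exact counting interval 7.33 to 39.1). HOXA13 passed the filter on low counts through the IVV embryos alone. It was the only DEG among the 24 HOX genes tested in ED. Over all 15733 genes tested, 6.34% were called and 4.95% were called lower, so that 1 of 24 is near the background. Groups that do not overlap with IVP below were seen for 0.718% of the genes tested.

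HOXD1, an anterior gene of cluster D, showed the same arrangement at a level too low for the filter of the fit. Its counts were 2, 2, 2, 3, 0, 0 and 0 in ED of IVP embryos and 8, 20, 18, 20, 18, 9, 8, 18 and 10 in ED of IVV embryos. The groups did not overlap. The mean was 0.0232 ± 0.0223 CPM (SD, n = 7) against 0.236 ± 0.0858 CPM (SD, n = 9), with p = 0.000175 in a two-sided exact permutation test, the smallest value that 7 against 9 libraries allow. This test was chosen after the values were seen and was run for all 35 HOX genes with a count in ED, 7 of which had p under 0.05, beside 15.2% of the 23686 genes with a count in ED. Where the filter admitted HOXD1 to the fit across all genes, at 10 counts in 3 libraries, its log2 difference was -3.23 (SE 0.69, edgeR adjusted p = 0.00408). It passed that filter through 6 libraries of IVV embryos and none of IVP embryos, so that a gene admitted in this way had to differ.

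Several HOX genes that were barely counted in ED of IVP embryos had some counts in ED of IVV embryos. HOXD11 had 0 to 2 counts in ED of IVP embryos and 1 to 15 (median 8) in ED of IVV embryos (exact permutation p = 0.00227). HOXB1, known for the hindbrain and the early streak, had 2 counts in a single ED of IVP embryos and 0 to 13 (median 4) in those of IVV embryos (exact permutation p = 0.0210). Their groups overlapped, since single IVV embryos were as low as the IVP embryos. HOXA11 was at 0 in all 7 ED of IVP embryos and had 0 to 14 counts in those of IVV embryos (exact permutation p = 0.0577), a mean at least 1.21-fold higher when 3 counts per library are taken as the floor. HOXA10 had a single ED library with counts in IVP embryos, with 2, and 6 of 9 in IVV embryos, with up to 14 (exact permutation p = 0.0871). The ratio of the summed counts was 9.90 for HOXA10 (95% exact counting interval 2.50 to 85.8) and 13.8 for HOXB1 (3.57 to 118). Both ratios depend on single libraries. VE26 held 14 of the 28 HOXA10 counts in ED of IVV embryos, and IVP14 held the 2 IVP counts of either gene. HOXD10, HOXD13, HOXC11 and HOXC12 stayed at 10 counts or fewer in every library, and their exact permutation p in ED lay between 0.356 and 0.704. HOXA2 and HOXA6 had at most 9 and 2 counts in an ED library, and the same test gave p of 0.846 and 0.600.

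**Figure D2:**
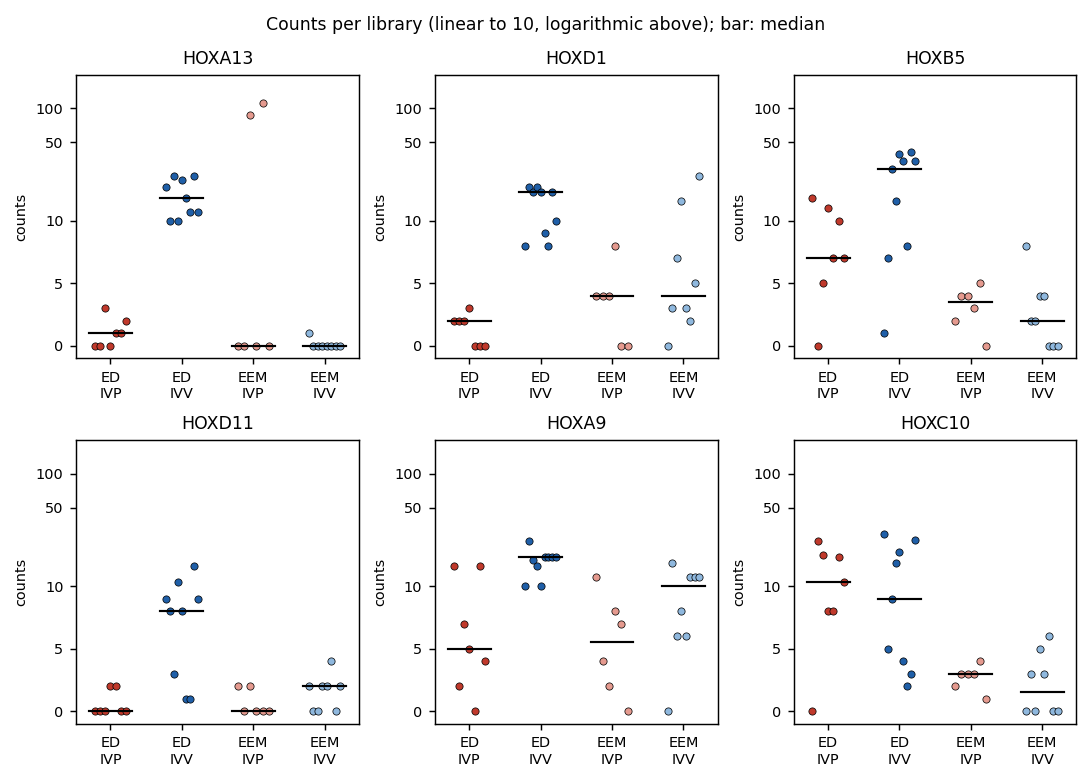
Counts per library of HOXA13, HOXD1, HOXB5, HOXD11, HOXA9 and HOXC10 by tissue and procedure. The axis is linear to 10 and logarithmic above, points are libraries and bars are group medians. For HOXA13 and HOXD1 all 9 ED libraries of IVV embryos lie above the 7 of IVP embryos, and 2 EEM libraries of IVP embryos hold 87 and 112 HOXA13 counts.

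The remaining 23 HOX genes tested in ED did not pass the threshold in edgeR, and 5 of them had an unadjusted p under 0.05. Together with HOXA13 this made 6 of 24, beside 18.4% of all genes tested. HOXB5, a gene of the foregut and neck levels, had 0 to 16 counts in IVP embryos (median 7) and 1 to 41 in IVV embryos (median 29), a log2 difference of -1.46 (SE 0.56, edgeR adjusted p = 0.139). HOXA9 had 0 to 15 counts (median 5) against 10 to 25 (median 18), a difference of -1.16 (SE 0.51, edgeR adjusted p = 0.215). The other three differed in the opposite direction. HOXC4 had 90 to 338 counts in IVP embryos (median 266) and 59 to 258 in IVV embryos (median 134), a difference of 0.90 (SE 0.33, edgeR adjusted p = 0.119), which DESeq2 called (adjusted p = 0.0431). HOXD4 and HOXA3 differed by 0.90 (SE 0.39) and 0.87 (SE 0.39), with edgeR adjusted p of 0.208 and 0.218. The groups overlapped for all 5 genes. For the other 18 the log2 difference lay between -0.65 for HOXC6 and 0.70 for HOXA7, and over the 24 genes the median was -0.15 against -0.01 for all genes. The streak and mesoderm markers differed between the same libraries. Their summed level was 13.9 to 57.7 CPM in ED of IVP and 54.0 to 208 CPM in ED of IVV embryos, and 9 of 10 tested were lower in IVP embryos, as were 2 of 5 epiblast markers. Trophoblast markers summed to medians of 26830 and 24260 CPM, and 0 of 12 were called by edgeR or had an unadjusted p under 0.05. Of 10 hypoblast markers 0 were called and 1 had an unadjusted p under 0.05. The 9 uterine markers found summed to 10.6 to 31.9 CPM in ED of IVP embryos (median 24.9) and 10.3 to 19.8 CPM in ED of IVV embryos (median 13.2). Of 7 tested MUC1 was higher in IVP embryos by 1.096 and DES lower at -1.73 (edgeR adjusted p = 0.0162 and 0.00529), and 4 had an unadjusted p under 0.05. The part of these tissue markers in the HOX values was not tested.

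In EEM, IVP and IVV embryos were compared in the same way. No HOX gene of 20 tested was a DEG by edgeR, against 3.81% of all 14718 genes. Of the 20, 4 had an unadjusted p under 0.05, beside 13.7% of all genes, and DESeq2 called 1, HOXC4 (adjusted p = 0.0219). HOXC4 had 92 to 309 counts in EEM of IVP embryos (median 183.5) and 36 to 318 in those of IVV embryos (median 93.5). The log2 difference was 1.07 (SE 0.33, edgeR adjusted p = 0.0686). A single IVV embryo, VE19, held the 318 counts and the next IVV embryo 183. HOXC4 was called when IVP10 or VE24 was left out (edgeR adjusted p = 0.0368 and 0.0238). HOXD4 was called without IVPF14 (edgeR adjusted p = 0.0425), and without VE19 both HOXA3 and HOXD4 were (edgeR adjusted p = 0.0385 and 0.0290). With all embryos, HOXD4 differed by 0.95 (SE 0.37, edgeR adjusted p = 0.194), HOXA3 by 0.88 (SE 0.35, edgeR adjusted p = 0.203) and HOXB9 by -0.57 (SE 0.21, edgeR adjusted p = 0.163). HOXC4 and HOXD4 are paralogues, and HOXC4, HOXD4 and HOXA3 had higher fitted values in IVP embryos in both tissues, none of them past the threshold in edgeR and HOXC4 past it in both tissues in DESeq2. ED and EEM of 13 embryos are paired, so that the tissues are not independent in this respect. The median difference over the 20 HOX genes was -0.07, and over all genes it was 0.00.

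HOXA13 stood apart in EEM and was too seldom counted for that fit. It had 87 counts in embryo IVP14, 112 in embryo IVPF14 and 0 in the 4 other EEM libraries of IVP embryos. EEM of IVV embryos had 1 count, in VE19, and 0 in the 7 others. The high value was thus a matter of 2 embryos, whose ED libraries held 3 and 1 counts. The exact permutation p for IVP against IVV was 0.330. Maternal markers were looked at in the same libraries. CD52, a leukocyte marker, was also counted in EEM of IVP embryos, with 62 counts in IVP14 and 36 in IVPF14, but it had 81 and 80 counts in IVP11 and IVPF13, whose HOXA13 was 0. Of the other 6 maternal blood markers, PTPRC, known from all leukocytes, had at most 2 counts in an EEM library of either procedure, and CD3E, of T cells, had 0.0691 ± 0.0409 CPM (SD, n = 6) in EEM of IVP and 0.0767 ± 0.0629 CPM (SD, n = 8) in EEM of IVV embryos. The haemoglobin genes HBA, HBA1 and HBB had at most 3 counts there, and LYZ at most 12 in EEM of IVP and 4 in EEM of IVV embryos. The 9 uterine markers found summed to 17.4 to 37.3 CPM in EEM of IVP and 7.71 to 19.2 CPM in EEM of IVV embryos, with MUC1 the highest of them. PAEP, a secretory gene of the uterus, was at 0 in all libraries, as were HOXA10 and HOXA11, both known from the endometrium, in all EEM libraries. The part of maternal tissue in the HOXA13 counts was not tested.

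ED and EEM were then compared within the 13 embryos whose titles give both tissues. Over all genes the 2 libraries named IVPF13 did not resemble each other (r = -0.19), so their shared origin rests on the titles alone. Of 25 HOX genes tested 3 were called, 1 higher and 2 lower in ED, whereas 21.9% of all 16784 genes were called (13.4% higher and 8.50% lower). Ranges of counts are given over all libraries of a tissue. HOXC10, a gene of the lumbar level, had 0 to 29 counts in ED and 0 to 6 in EEM, and was higher in ED in 11 of 13 pairs. The log2 difference was 1.95 (SE 0.60, edgeR adjusted p = 0.0244). HOXC10 had 10 or more counts in 8 ED libraries and 0 EEM libraries, so that it passed the filter through the tissue in which it was high. HOXD3 and HOXD4, neighbours known for the neck vertebrae, were lower in ED in 11 of 13 pairs each. HOXD3 had 0 to 138 counts in ED and 16 to 225 in EEM, a difference of -1.01 (SE 0.30, edgeR adjusted p = 0.0186). HOXD4 had 26 to 175 counts in ED and 32 to 327 in EEM, a difference of -0.78 (SE 0.24, edgeR adjusted p = 0.0263). All of these ranges overlapped between tissues. The calls, though less so the size of the differences, varied with single embryos. Without IVP14 only HOXD3 was called, without IVPF13 only HOXC10 (HOXD3 and HOXD4 at edgeR adjusted p = 0.0570 and 0.0893), and HOXC10 was lost also without IVP11 or IVPF14 and HOXD4 without VE28 or VE29. Where its call was lost, HOXC10 differed by 1.74 to 1.88, HOXD3 by -0.89 and HOXD4 by -0.74 to -0.59. HOXB5 was next, with 11 of 13 pairs higher in ED and a difference of 1.72 (SE 0.66, edgeR adjusted p = 0.0709). The median difference of the HOX genes was -0.09, and that of all genes was also -0.09. In the same comparison 6 of 12 trophoblast markers tested were lower in ED and 0 higher, 9 of 10 streak and mesoderm markers were higher and 0 lower, and of 11 hypoblast markers 6 were higher and 1 lower. Their part in the HOX values was not tested.

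**Figure D3:**
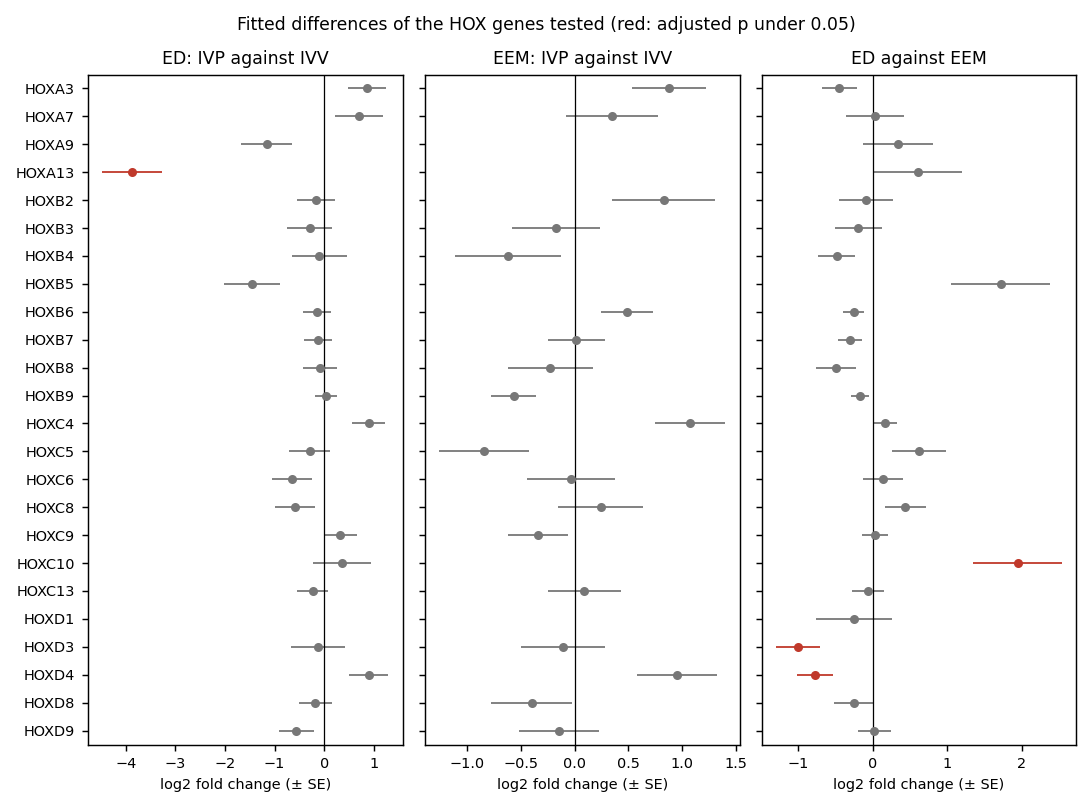
Fitted log2 differences (points) with standard errors (lines) of HOX genes tested, for IVP against IVV in ED and in EEM and for ED against EEM in paired embryos. Genes without a point were not tested. Red marks an edgeR adjusted p under 0.05, which HOXA13 reaches in ED, at -3.87, and HOXC10, HOXD3 and HOXD4 reach between tissues.

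Within the 8 IVV pairs, 2 of 25 HOX genes were called, both higher in ED, against 22.1% of all genes called and 15.6% called higher. HOXA13 was higher in ED in 8 of 8 pairs, by 5.99 on the log2 scale (SE 0.80, edgeR adjusted p = 2.03e-05). Over all IVV embryos, with VE6 that gave no EEM library, 9 ED and 0 EEM libraries had 10 or more counts of HOXA13. It thus passed the filter mainly through the tissue in which it was high. Its 153 counts in ED of all IVV embryos stood against 1 count in EEM, a ratio of 116 (95% exact counting interval 20.5 to 4609). HOXB5 was higher in ED in 7 of 8 pairs, by 2.79 (SE 0.84, edgeR adjusted p = 0.0223), a call that was lost when VE26, VE29, VE3 or VE5 was left out. Without them the difference was 2.37 to 2.78. HOXB5 too had 10 or more counts in ED libraries alone, 9 of them over both procedures. EEM of IVV embryos had at most 8 HOXB5 counts, and ED of IVV embryos 1 to 41. Among the genes not called, HOXA9 and HOXC8 were higher in ED in 8 of 8 IVV pairs, with differences of 0.80 and 0.84 (edgeR adjusted p = 0.292 and 0.0901). HOXB9 was lower in ED in 7 of 8 IVV pairs, with a difference of -0.44 (edgeR adjusted p = 0.0513). HOXA3, HOXB4, HOXB8, HOXD3 and HOXD4 were also lower in 7 of 8. HOXC6, HOXC10 and HOXD1 were higher in ED in 7 of 8, HOXC10 by 2.13 (edgeR adjusted p = 0.0554). With the called genes, 7 of 25 had an unadjusted p under 0.05, beside 34.3% of all genes.

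Of the genes of paralogues 10 to 13 with low counts, HOXA10, HOXA11, HOXC11 and HOXD10 had no count in any EEM library, and HOXD11 and HOXD13 had at most 4 there. HOXC12 was low in both tissues, with at most 4 counts in an ED and 2 in an EEM library, and was higher in ED in 4 pairs and lower in 2. HOXD10 was higher in ED in 9 pairs and equal, at 0 in both tissues, in the remaining 4. HOXD13 was higher in ED in 9 pairs and lower in 1, VE5, in CPM only, since VE5 had 2 counts in both tissues. Their counts do not allow a fold to be given with any precision. The ratio of summed counts between ED and EEM of IVV embryos was 8.72 for HOXD13 (95% exact counting interval 3.18 to 33.3). The anterior gene HOXB1 had at most 2 counts in an EEM library, and its ratio was 14.8 (3.83 to 126).

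Within the 5 IVP pairs, 1 of 25 HOX genes was called, against 4.83% of all genes called and 0.649% called lower in ED. It was HOXA13 again, in the opposite direction, with a log2 difference of -4.78 (SE 1.08, edgeR adjusted p = 0.0123). DESeq2 did not call it (-3.01, adjusted p = 0.113), and the call was lost in edgeR without IVV embryo VE19, at a difference of -4.81 (adjusted p = 0.0559). The difference between procedures in the tissue effect was called for HOXA13 at -10.77 (SE 1.46, edgeR adjusted p = 0.00103) and for none of the 24 other HOX genes, against 1.02% of all genes called and 0.918% with a negative term. Both calls rest on the EEM counts of IVP14 and IVPF14. Without these 2 embryos the IVP tissue difference of HOXA13 was 1.80 (edgeR adjusted p = 0.720) and its interaction term was -4.19 (SE 35.4, edgeR adjusted p = 0.987). The tissue difference in IVV embryos then stayed at 5.99 (edgeR adjusted p = 5.15e-05), and the IVP against IVV difference in ED was -4.45 (SE 0.74, edgeR adjusted p = 0.00163). HOXD1 and HOXB6 had an unadjusted p under 0.05 for the interaction, with terms of -2.94 and -0.66 (edgeR adjusted p = 0.304 and 0.407), which with HOXA13 made 3 of 25 beside 10.3% of all genes.

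Beyond the groups, HOX levels differed between embryos, and ED and EEM of an embryo were compared for this. Deviations from the mean of each procedure were correlated over the 13 embryos for all 16784 genes, with p of r from 100000 permutations within procedure. For the rank correlation rho, of the HOX genes alone, the ranked deviations of all 13 embryos were permuted together. Of 25 HOX genes 3 were called, whereas 27.3% of all genes were, and the median r was 0.38 for the HOX genes and 0.52 for all genes. HOXC4 had r = 0.83 (permutation p = 0.00085, adjusted permutation p = 0.0114) and rho = 0.75 (permutation p = 0.00404), with r = 0.74 after the 2 embryos farthest from the median were left out. HOXB6 had r = 0.73 (permutation p = 0.00368, adjusted permutation p = 0.0231) and rho = 0.81 (permutation p = 0.00122), with r = 0.75 without such embryos. HOXC9 had r = 0.69 (permutation p = 0.0127, adjusted permutation p = 0.0476) and rho = 0.81 (permutation p = 0.00096), with r = 0.72 without them. Without IVPF13 r was 0.84 for HOXC4, 0.72 for HOXB6 and 0.71 for HOXC9. For these 3 genes an embryo high in ED was thus high in EEM as well. HOXB5 and HOXC5 had negative values of r, -0.42 and -0.40, neither past the threshold (adjusted permutation p = 0.298 and 0.402).

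Embryo IVPF14 lacked HOXB4 counts in both tissues. HOXB4, a gene of the neck level and of blood progenitors, had 0 counts in ED and 0 in EEM of IVPF14, while the other 15 ED libraries had 36 to 344 and the other 13 EEM libraries 71 to 296. HOXB8 had 136 and 37 counts in IVPF14, the lowest in both tissues, against 141 to 1342 and 261 to 997 elsewhere. HOXD3 had 0 and 16 counts, and the lowest counts elsewhere were 22 in ED and 69 in EEM. Its libraries were the smallest of their tissues, so the ranks were taken in CPM. Of the 25 detected genes 3 were lowest in IVPF14 in both tissues (HOXB4, HOXB8 and HOXD3), beside 2.48% of all 18122 genes with the same count minimum. These 3 were also the only ones lowest in its ED, beside 4.57% of all genes. In its EEM 6 more were lowest (HOXB2, HOXC6, HOXC13, HOXD4, HOXD8 and HOXD9), which made 9 of 25 beside 9.50% of all genes. IVPF14 was singled out after its low HOX counts were seen, so a high share of HOX genes follows in part from that choice. On either side of HOXB8, HOXB7 had 224 and 323 counts and HOXB9 had 455 and 354 in IVPF14, within the range of the other libraries. In cluster D, HOXD1 had 0 counts in both tissues of IVPF14, as in some other libraries. HOXB3, which overlaps HOXB4 in the annotation, had 9 counts in both tissues of IVPF14.

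**Figure D4:**
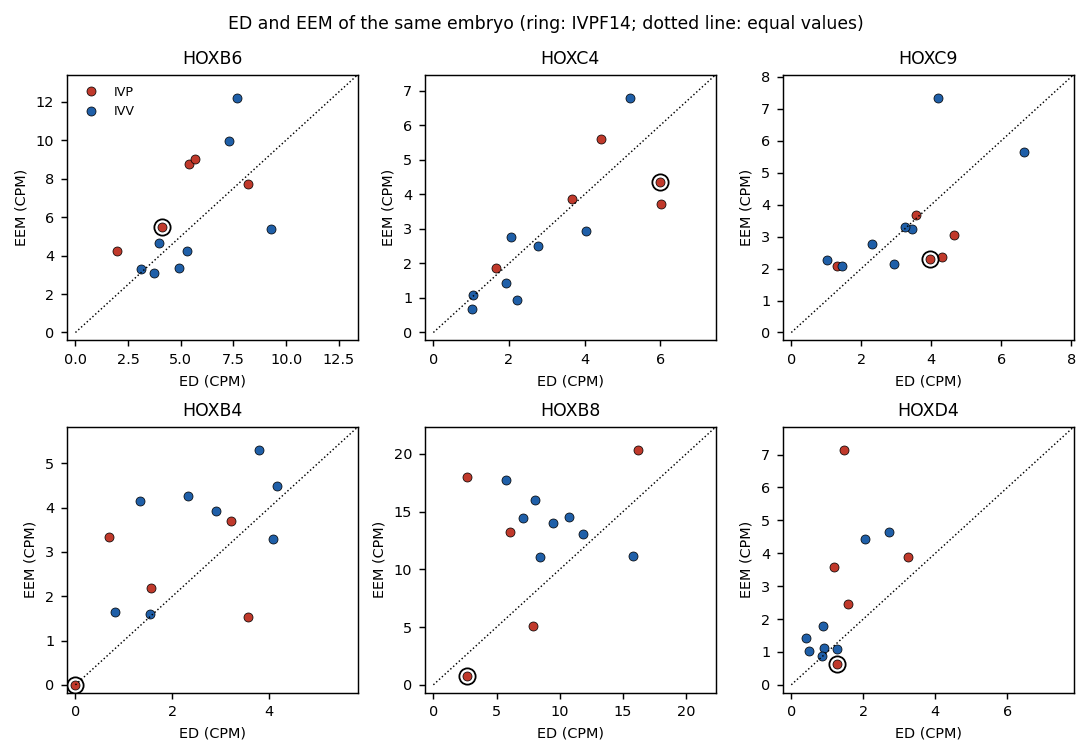
CPM of HOXB6, HOXC4, HOXC9, HOXB4, HOXB8 and HOXD4 in ED (horizontal) and EEM (vertical) of the 13 embryos that gave both tissues. Red is IVP, blue is IVV, the dotted line marks equal values and the ring marks embryo IVPF14. HOXC4 rises along the line with r = 0.83, and IVPF14 lies at 0 for HOXB4 in both tissues.

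Over all genes, the ED of 12 of the 13 embryos was most like its own EEM after procedure means were removed. The exception was IVPF13, with r = -0.19 between its tissues. Over the HOX genes alone the ED was most like its own EEM in 7 of 13 embryos. Among the 25 detected genes, levels in 30 libraries varied together only loosely once group means were removed. The median r was 0.13 over 69 pairs within a cluster and 0.04 over 231 pairs between clusters, and by cluster it was -0.08 in A (10 pairs), 0.15 in B (28 pairs), 0.12 in C (21 pairs) and 0.39 in D (10 pairs), or 0.31 in D without IVPF14. Of the 300 pairs HOXB4 and HOXB8 were the most alike, at r = 0.85, or 0.74 without IVPF14. HOXD3 and HOXD4, whose spans overlap, had r = 0.69, or 0.79 without IVPF14. These values describe libraries that share embryos and were not tested.

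Genes that act upstream of HOX, with HOX proteins or on their chromatin were examined beside them. Of 13 upstream factors tested, 6 were lower in ED of IVP embryos and 0 higher, with a median difference of -0.96 on the log2 scale against -0.01 for all genes. WNT3, a streak signal, was lower at a log2 difference of -3.06 (SE 0.47, edgeR adjusted p = 0.000257), and CDX1 and CDX4, direct regulators of HOX genes, at -3.26 (edgeR adjusted p = 0.00477) and -1.91 (edgeR adjusted p = 0.0230). CDX1 had 0 to 10 counts in ED of IVP and 5 to 87 in ED of IVV embryos, and so passed the filter mainly through IVV embryos. CDX4 had 4 to 33 counts in ED of IVP and 14 to 193 in ED of IVV embryos. TBXT, the streak factor brachyury, had 0 to 88 counts in IVP and 10 to 2136 in IVV embryos and was lower at a log2 difference of -3.92 (edgeR adjusted p = 0.00901). WNT3A was lower at a log2 difference of -1.70 (edgeR adjusted p = 0.0374). In EEM 0 of 8 upstream factors tested were called by edgeR, and 1 had an unadjusted p under 0.05. Between tissues 7 of 13 were higher in ED and 2 lower, and TBXT was listed at 0 in all EEM libraries. CDX2, the trophoblast CDX factor, was lower in ED at a difference of -0.52 (SE 0.17, edgeR adjusted p = 0.0321).

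Among 9 cofactors of the PBX, MEIS and PKNOX families, 1 was lower in ED of IVP embryos, PKNOX2, at -1.68 (edgeR adjusted p = 0.0421), 6 had an unadjusted p under 0.05, and the median difference was -0.99. MEIS2 was higher in ED than in EEM, by 1.85 (edgeR adjusted p = 0.000104), and in EEM 0 of 8 cofactors were called between procedures by edgeR, 2 of them with an unadjusted p under 0.05. Of 12 chromatin regulators of HOX genes, KDM6A, a demethylase of the Polycomb mark, was the only 1 called between procedures. It was lower in IVP embryos in ED at -0.97 (SE 0.22, edgeR adjusted p = 0.00967) and in EEM at -0.75 (SE 0.21, edgeR adjusted p = 0.0384). The sex of the embryos is not in the labels, and its part in these KDM6A values was not tested. EZH2 and EED, subunits of the Polycomb complex that writes this mark, were lower in ED than in EEM at -0.41 and -0.32 (edgeR adjusted p = 0.00889 and 0.0261).

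Homeobox genes related or linked to the HOX clusters were the last list. EVX1, which lies next to HOXA13 at the end of cluster A and is known for the streak, had 1 to 112 counts in ED of IVP embryos, 47 to 400 in ED of IVV embryos and 0 to 3 in EEM. It was lower in ED of IVP embryos at a log2 difference of -2.66 (SE 0.53, edgeR adjusted p = 0.00336). PDX1, a ParaHox gene known for the pancreas, was higher in IVP embryos in ED by 3.34 (SE 0.48, edgeR adjusted p = 0.000108) and in EEM by 2.76 (SE 0.39, edgeR adjusted p = 9.97e-05). MNX1 was tested and not called in either tissue, and EVX2, GSX1 and GSX2 were too low to be tested. Of 9 genes that flank the 4 clusters 0 were called by edgeR between procedures in ED or EEM, or had an unadjusted p under 0.05, and HIBADH, beside cluster A, was higher in ED than in EEM by 0.66 (SE 0.15, edgeR adjusted p = 0.00305).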

How the data were processed

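RNA was sequenced by the study as non-stranded, poly(A)-selected paired reads, filtered with SOAPnuke and aligned to ARS-UCD1.3, and the submitters' processing notes name FastQC 0.11.9, Trimmomatic, STAR 2.7.0b and featureCounts of Subread 2.0.3. The deposited table holds raw counts per Entrez identifier for 30 libraries. Entries of 2 (19289) outnumbered those of 1 (15257) and 3 (13344), so counts may hold both mates of a read pair, and counting intervals, which cover counting error only, are then too narrow. Names came from a RefSeq table of another assembly (31630 of 35092 identifiers matched), so no coordinates are given.

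Counts were tested with edgeR 4.0.16 (R 4.3.3; TMM, filterByExpr with a minimum of 10, quasi-likelihood test, Benjamini-Hochberg adjustment over all genes, threshold 0.05), with 1 surrogate variable from sva 3.50.0 for IVP against IVV within each tissue. The study used DESeq2 with sva to account for morphology. Differences are IVP minus IVV or ED minus EEM. ED and EEM were compared in 26 libraries with embryo as a block. Tissues were paired by the embryo named in the titles, and their deviations correlated with r from -0.19, in IVPF13, to 0.64. Alternatives included DESeq2 1.42.0. The fits were tested on simulated data. Exact permutation tests, correlations over embryos and pairs, the ranking of IVPF14 and the exclusion of IVP14 and IVPF14 were chosen after the values were seen. All HOX genes are counted, and those called or detected are named with values, except that some items are not reported here. From the other lists at most 5 called genes a list are named, by smallest p. The members and lists were chosen with earlier results of these data known. Replicates are separate embryos from a pair of cows a procedure, so p-values measure the spread between these embryos.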

Additional observations from a re-analysis of the deposited data

Results flagged for a closer look

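Of 100 groups of the detected HOX genes examined with Dixon's test, 4 had a library far from the others, where chance flags about 1 in 20 groups. HOXA13 in EEM of IVV embryo VE19 was at 0.0214 CPM, a single count, with 0 in the others of its group. HOXC4 in EEM of VE19 was at 6.79 CPM (318 counts), above its group. HOXC13 in EEM of IVV embryo VE28 was at 3.22 CPM (139 counts), also above its group. HOXC9 in ED of IVP embryo IVP10 was at 1.296 CPM (70 counts), below its group. The tissue difference of HOXA13 was unequal between IVP and IVV embryos, with an interaction term of -10.77 on the log2 scale, which rested on the EEM libraries of IVP14 and IVPF14.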

How the results depend on the processing

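HOXA13 was lower in ED of IVP embryos, with an adjusted p from 1.26e-05 to 0.00163, in all 8 alternatives that tested it and in each fit without 1 embryo. With counts halved it fell under the filter, and 0 HOX genes were called. The count of 1 in ED became 2 with DESeq2 (HOXC4 added), 2 with a minimum of 10 counts in 3 libraries or without IVP14 and IVPF14 (HOXD1 added), 5 with no filter (HOXA11, HOXB1, HOXD1 and HOXD11 added), and 1 to 2 without single embryos. The count of 0 in EEM became 1 with 2 surrogate variables (HOXD4), 1 with DESeq2 and 1 with the minimum of 10 in 3 libraries (HOXC4), 2 with no filter (HOXC4 and HOXA13), and 0 to 2 without single embryos. Between tissues, the 3 calls became 4 with DESeq2, 4 with no filter, 2 with counts halved, 1 without IVP14 and IVPF14 and 1 to 4 without single embryos. With no replicate block there were 2, HOXC10 and HOXB5. HOXD3 and HOXD4 then differed by -0.92 and -0.91 (edgeR adjusted p = 0.166 and 0.0990), so that the calls, and not the size of the differences, rest on the pairing. The 2 calls in IVV pairs became 4 with DESeq2, 1 with halved counts, 4 without IVP14 and IVPF14, and 1 to 4 without single embryos. The single call in IVP pairs became 0 with DESeq2, 0 without IVP14 and IVPF14, and 0 to 1 without single embryos (0 without IVP14, IVPF14 or VE19). Without both, HOXA13 in IVP pairs reversed to 1.80 and the interaction call went from 1 to 0, while it was 1 without any single embryo. The block changed no other call of the interaction or within IVP or IVV pairs. The number of detected genes was 23 to 31 under other minimums. Apart from these constructions, the causes were not tested. Low counts limit paralogues 10 to 13 other than HOXC13.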
